A study of Mus musculus with 4 samples.

Results

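The mitochondrial genome expression machinery is the set of nuclear-encoded factors that copy mitochondrial DNA, transcribe it, process and stabilise its RNAs and translate them. The members were 38 genes, chosen by function and matched by symbol, and 37 of them were present among the 15746 genes of the table (Slirp, the partner of Lrpprc, was not listed). RNA was sequenced from adult mouse hearts of WT genotype, in 2 libraries of isolated mitochondria and 2 libraries of the tissue that remained after their removal, called the rest. No further allele, agent or age distinguished the groups in the labels. Whether libraries came from separate animals is not stated, so that p-values measure the spread between these libraries, which may be technical. The mitochondrial samples were treated with digitonin and RNase A before RNA isolation, and their fragmentation time in library preparation was adjusted to the size of the RNA. The rest was the debris of a low-speed spin, not purified cytosol.

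Mitochondrial DNA encodes only a small set of respiratory chain subunits together with the rRNAs and tRNAs needed to make them, and every protein that replicates or expresses it is made from nuclear genes and imported. The single-subunit polymerase Polrmt transcribes the genome with the help of Tfam, which also packages the DNA, and Tfb2m. Polg, the helicase Twnk and the single-strand binding protein Ssbp1 form the replisome. Heart muscle is rich in mitochondria, and inherited defects in many of these genes cause cardiomyopathy. The mRNAs of such genes are found in the cytosol and, in part, on the outer surface of mitochondria.

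Promoters of this kind of gene are known for sites of NRF1 and of the ETS family factor NRF2 (GABP). The core letters CCGGAAG, searched on both strands in the 300 bases around each RefSeq gene start (250 before and 50 after it, GRCm38.p6), were found in 17 of the 35 members with an entry, or 48.6%. The share was 20.6% of 8432 tested nuclear protein-coding genes, 9.93% of all 27025 genes with an entry and 31.6% (18 of 57) of other genes of the pathway. Letters of an NRF1 site (GCGCA, any base, then GCGC, on both strands) were found in 2 of 35 members (Polrmt and Gfm2), or 5.71%, beside 11.9% of the tested protein-coding genes. The share was 5.19% of all genes with an entry and 17.5% (10 of 57) of other genes of the pathway. The core was present both in members with higher values in the mitochondrial libraries (Tfam, Ssbp1, Twnk) and in members with lower values there (Polrmt, Polg). Of the 2 Twnk starts in the RefSeq table, the core was in the window of the downstream one, inside the gene, and not in that of the other. The following stretches of 30 bases are shown because the values of these 5 genes of replication and transcription are set against each other below. Each is written 5′ to 3′ on the strand of the gene, with the core or its reverse complement in capitals. The stretches of Tfam, Ssbp1 and Polg overlap an annotated exon of the gene, and those of Twnk and Polrmt do not.
Tfam, minus strand, chr10:71238073-71238102: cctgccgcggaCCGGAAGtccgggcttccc
Ssbp1, plus strand, chr6:40471410-40471439: ggctccgtgcgCCGGAAGcgagccgctggc
Twnk, plus strand, chr19:45006481-45006510: ggagagttttgCTTCCGGagtcaccgcgag
Polrmt, minus strand, chr10:79746606-79746635: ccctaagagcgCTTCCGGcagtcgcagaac
Polg, minus strand, chr7:79466293-79466322: gaggacctcacCCGGAAGtccctctgcacc
The matches describe the letters in these windows and are no measurement of binding.

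Values are normalized counts: reads per gene divided by the size factor of the library and rounded by the authors. They summed to between 6956699 and 183395941 per library, and genes of the mitochondrial chromosome held 97.6% and 93.5% of the sum in mitochondrial replicates 1 and 2 and 63.2% and 67.5% in rest replicates 1 and 2. Nuclear genes therefore rested on few reads in the mitochondrial libraries, where the spacing of the values put 1 read at 3.87 and 2.55 normalized counts. At this depth 3 reads corresponded to 11.6 and 7.65 normalized counts in replicates 1 and 2. In the rest libraries the worth of a read could not be determined from the spacing. Cardiomyocyte markers were abundant in all 4 libraries, with the 6 genes summing to 392845 and 298890 in the mitochondrial and 542960 and 483453 in the rest libraries. These sums were carried by Myh6, which overlapped, and Ttn, which lay below the rest, whereas 4 of the 6 (Tnnt2, Myl2, Tnni3 and Actc1) lay above it in both mitochondrial libraries, and the median log2 fold change of the 6 was 1.23. Nucleus-retained RNAs (Malat1, Neat1, Kcnq1ot1) were below the rest in both mitochondrial libraries for 3 of 3 genes, with sums of 13648 and 8699 against 42937 and 45482. Endothelial markers were below in 4 of 4 genes (sums of 1402 and 1214 against 2395 and 2173), fibroblast markers were above in 4 of 4 (6755 and 2838 against 1798 and 2580) and leukocyte markers were above in 3 of 3 (275 and 174 against 114 and 138). Erythroid markers were below in 4 of 4 genes (50 and 323 against 781 and 412), and the 2 smooth muscle markers listed summed to 136 and 423 against 588 and 1374. Of these 2, Acta2 overlapped (93 and 362 against 208 and 574) and Myh11 lay below (43 and 61 against 380 and 800). The log2 fold change of Myh11 was -3.40 (limma adjusted p = 0.0427 in the fit described below). No marker was at 0 in any library, and the part of cell composition in the results below was not tested.

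The first question was which mRNAs of the machinery differed between the fractions. A limma fit was run on 12150 genes, those reaching 10 normalized counts in no fewer than 2 libraries. It held 36 members, of which none was called higher or lower at an adjusted p-value under 0.05. Over all tested genes 2.16% were called higher and 1.39% lower. Without adjustment, p-values under 0.05 were found for 5 members with higher values in the mitochondrial libraries (Hsd17b10, Ssbp1, Tfam, Twnk and Tufm), beside 14.1% of all genes, and for 1 with lower values (Polrmt), beside 16.2%. Both mitochondrial libraries lay above both rest libraries for 11 members, beside 27.7% of all genes, and below them for 7, beside 33.4%. The fractions overlapped for 18 members, beside 4724 of all 12150 genes. The fold change, mitochondria over rest on the log2(normalized count + 1) scale, was positive for 18 of 36 members. Its median was -0.05, beside -0.14 over all tested genes. The members' median was thus near that of all tested genes. Whether members differed among themselves more than other genes do was not tested.

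The sign of the positive fold changes depended on the scale. Scaling to the library total, which the mitochondrial chromosome dominates, moved the median of all genes to -3.93, and scaling to the total without that chromosome moved it to -0.98. The members' median minus that of all genes was 0.09 as deposited, 0.11 and 0.09 under these scalings. Fold changes below are therefore relative to the bulk of nuclear genes, and under the library total all 18 positive ones turned negative, while the 18 negative ones kept their sign under every scaling tried.

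**Figure D1:**
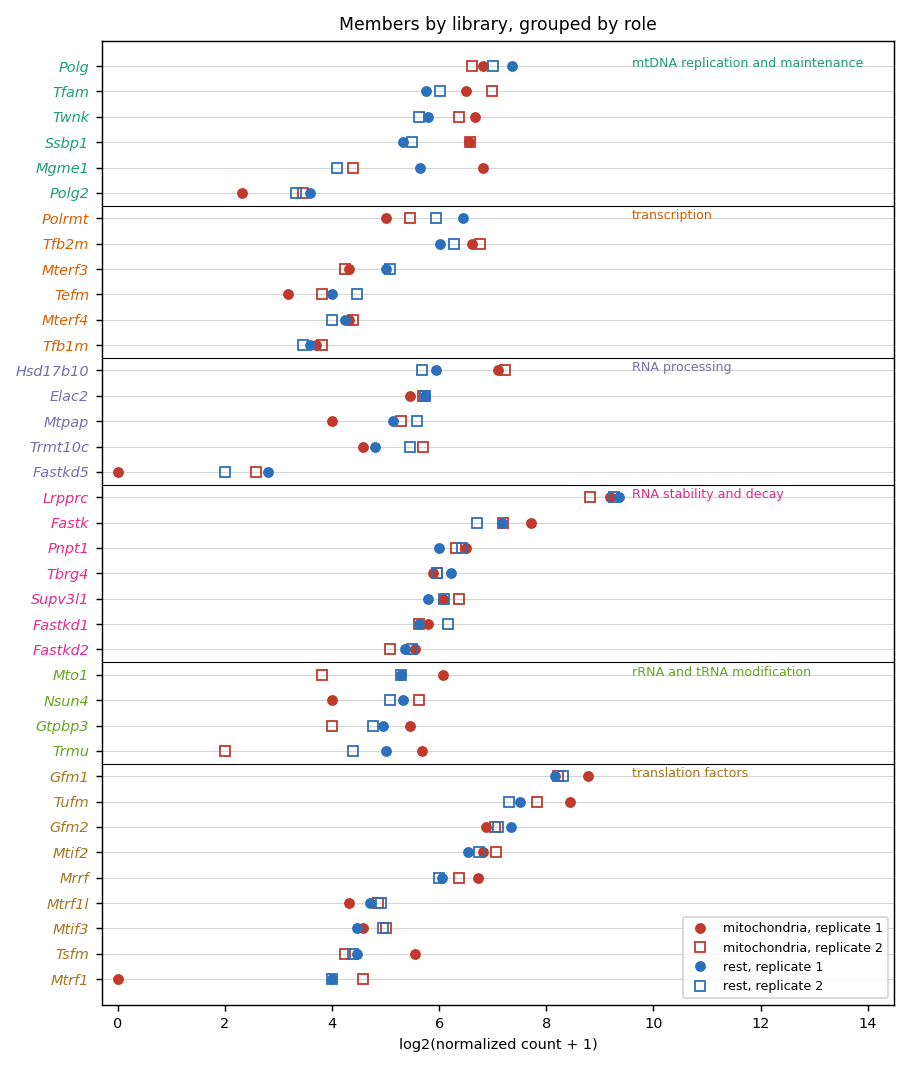
Normalized counts of the 37 listed members in each library, on a log2 scale after adding 1, grouped by role (colour of the gene name) and ordered within a role by the mean of the rest libraries. Red marks are mitochondrial and blue marks rest libraries, with filled circles for replicate 1 and open squares for replicate 2; Lrpprc was the most abundant member in the rest, and Mtrf1 and Fastkd5 lay at 0 in mitochondrial replicate 1.

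Among the 6 genes of mtDNA replication and maintenance, the median fold change was 0.78, with both mitochondrial libraries above both rest libraries for 3 genes and below for 1. Over all tested genes these shares were 27.7% and 33.4%. Ssbp1, the mitochondrial single-strand DNA-binding protein (chr6:40471352-40484700, plus strand, mm10), had 93 and 94 normalized counts in the mitochondrial and 39 and 44 in the rest libraries. All mitochondrial values of Ssbp1 exceeded the rest by more than the spread within a fraction, and the log2 fold change was 1.16 ± 0.22 (SE, limma adjusted p = 0.0602). Its transcript is 97.317% identical over 410 bases to the pseudogene Gm12115, which was not listed. Tfam, which packages mtDNA and activates its transcription (chr10:71225464-71238280, minus strand), had 89 and 125 against 53 and 64, or 0.85 ± 0.27 on the log2 scale (limma adjusted p = 0.127). Twnk, the replicative helicase (chr19:45005663-45012762, plus strand), had 101 and 82 against 54 and 48, or 0.83 ± 0.24 (limma adjusted p = 0.107). These 3 genes did not overlap between fractions and had 95% intervals of the log2 fold change above 0, although none passed the adjusted threshold. The catalytic subunit of the polymerase, Polg, went the other way, with 112 and 97 in the mitochondrial against 163 and 128 in the rest libraries and a log2 fold change of -0.47 (95% interval from -1.06 to 0.12). Its accessory subunit Polg2 was near the detection limit at 4 and 10 against 11 and 9, and its fractions overlapped. Mgme1, a nuclease of mtDNA maintenance, had 112 and 20 against 49 and 16, so that replicate 1 was high in both fractions and the fold change of 0.74 had a 95% interval from -1.81 to 3.29. It was -0.47 without mitochondrial replicate 1 and -0.04 without rest replicate 2. Mgme1 shares 206 exon bases with Snx5 on the opposite strand, which had 294 and 207 against 120 and 116. Twnk likewise shares 507 exon bases with Mrpl43 on the opposite strand, listed at 27 and 20 against 10 and 11. Polg shares 921 with Fanci on the opposite strand, which was not listed. Whether the authors' counting used the strand is not stated.

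In transcription the 6 genes fell on both sides, with 3 above, 3 below and none overlapping, and a median of -0.25. Over all tested genes, 27.7% lay above and 33.4% below. Polrmt, the mitochondrial RNA polymerase (chr10:79736123-79746581, minus strand), had 31 and 43 normalized counts in the mitochondrial and 86 and 60 in the rest libraries. Both mitochondrial values of Polrmt were below both rest values, and the log2 fold change was -0.96 ± 0.32 (limma adjusted p = 0.137). The value rested on 8 and 17 reads in the mitochondrial libraries. Mterf3, a repressor of mitochondrial transcription that also acts in ribosome assembly, had 19 and 18 against 31 and 33, or -0.76 on the log2 scale (95% interval from -1.55 to 0.03). Tefm, the elongation factor, had 8 and 13 against 15 and 21, or -0.74 (95% interval from -1.95 to 0.47), on only 2 and 5 reads in the mitochondrial libraries. Tfb2m, the initiation factor that melts the promoter, was the highest of the group, with 97 and 107 against 64 and 76 and a log2 fold change of 0.54 (95% interval from -0.04 to 1.12). Its coding sequence is 99.326% identical over 1187 bases to the pseudogene Gm1818, listed at 15 and 23 against 12 and 15. Tfb1m, an rRNA methyltransferase, and Mterf4, which recruits Nsun4 to the ribosome, both had a log2 fold change of 0.23 at levels of 10 to 20 normalized counts. Tfb1m had 12 and 13 against 11 and 10, on 3 and 5 reads in the mitochondrial libraries. Mterf4 had 19 and 20 against 18 and 15, on 5 and 8 reads, so that both separations were small. Mterf4 shares 1855 exon bases with Sned1 on the opposite strand. Thus Polrmt lay lower, and both of its initiation factors, Tfam and Tfb2m, lay higher in every mitochondrial library than in any rest library.

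RNA processing held the member with the highest fold change. Hsd17b10, a dehydrogenase that is also a subunit of the mitochondrial RNase P (chrX:152001845-152004442, plus strand), had 136 and 148 normalized counts in the mitochondrial and 60 and 50 in the rest libraries. The mitochondrial mean of 142 ± 8.49 (SD, n = 2) was 2.58 times the rest mean of 55 ± 7.07 (SD, n = 2). The log2 fold change was 1.36 ± 0.22 with a 95% interval from 0.78 to 1.93, and its limma adjusted p of 0.0511 lay just outside the threshold. Trmt10c, the methyltransferase subunit of the same RNase P, had 23 and 51 against 27 and 43 and overlapped, with a log2 fold change of 0.01 that changed sign when mitochondrial replicate 2 (-0.55) or rest replicate 1 (-0.32) was left out. Elac2, which cuts tRNAs at their 3′ end, had 43 and 51 against 52 and 52, or -0.15 (95% interval from -0.79 to 0.50). Mtpap, the poly(A) polymerase, had 15 and 38 against 34 and 47, overlapping, or -0.71. Fastkd5, needed to process transcripts that no tRNA separates, was listed at 0 and 5 against 6 and 3 and was not tested; it shares 1966 exon bases with Ubox5 on the same strand.

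Among the 7 listed genes of RNA stability and decay, fold changes were small and 5 overlapped between fractions. Over all tested genes, 4724 of 12150 overlapped. Lrpprc, which binds and stabilises mitochondrial mRNAs, was the lowest, with 585 and 452 in the mitochondrial and 659 and 612 in the rest libraries, or -0.30 on the log2 scale (95% interval from -0.82 to 0.21). Fastk was the highest, with 209 and 145 against 143 and 104, or 0.51 (95% interval from -0.24 to 1.26), and its 4 values differed about as much within as between fractions. The helicase Supv3l1 and the exoribonuclease Pnpt1, which form the RNA degradosome, had log2 fold changes of 0.29 and 0.19. Fastkd2, Tbrg4 (also called Fastkd4) and Fastkd1 had -0.10, -0.17 and -0.19.

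The 4 modification enzymes all had overlapping fractions, beside 4724 of 12150 tested genes, and a median of -0.37. Gtpbp3, which modifies the wobble uridine of mitochondrial tRNAs together with Mto1, was the highest at -0.12, with 43 and 15 in the mitochondrial against 30 and 26 in the rest libraries. Mto1 had 66 and 13 against 38 and 38, or -0.35. Trmu, which thiolates the same uridine, was the lowest at -0.86, with 50 and 3 against 31 and 20. Nsun4, an rRNA methyltransferase, had 15 and 48 against 39 and 33, or -0.40. All 4 differed more between the mitochondrial replicates than between the fractions, and each changed the sign of its fold change when 1 mitochondrial library was left out: Gtpbp3 to 0.60, Mto1 to 0.78 and Trmu to 0.98 without replicate 2, and Nsun4 to 0.41 without replicate 1.

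Translation factors had a median of 0.26 over 9 genes. Tufm, the elongation factor that brings tRNAs to the ribosome (chr7:126487361-126490731, plus strand), was the highest, with 345 and 227 normalized counts in the mitochondrial and 180 and 157 in the rest libraries. Its log2 fold change was 0.73 ± 0.26 (limma adjusted p = 0.153), and the mitochondrial replicates differed from each other more than the rest replicates did. The pseudogene Gm9755 is 99.853% identical to the Tufm coding sequence over 1356 bases and was listed at 46 and 36 against 39 and 34, and reads matching both would have been left out by the authors' counting, so that the listed level of Tufm may be too low. Tsfm, the exchange factor of Tufm, had 46 and 18 against 21 and 20 and overlapped, with 0.48, which was -0.18 without mitochondrial replicate 1. The recycling factor Mrrf had 105 and 82 against 65 and 63, or 0.53 (95% interval from -0.09 to 1.15). Its transcript is 97.085% identical over 789 bases to the pseudogene Gm6374, listed at 0 and 0 against 2 and 5. Initiation factors Mtif2 and Mtif3 had 0.30 and 0.09. The translocase Gfm1 had 438 and 298 against 286 and 317, overlapping, or 0.26 (-0.01 without mitochondrial replicate 1), and Gfm2, which acts in ribosome recycling, had 116 and 130 against 162 and 136, or -0.27. The release factor Mtrf1l had -0.21. Mtrf1, the lowest of all members, was listed at 0 and 23 against 15 and 15, and its -1.71 rested on the single 0 in mitochondrial replicate 1, since it was 0.58 without that library.

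**Figure D2:**
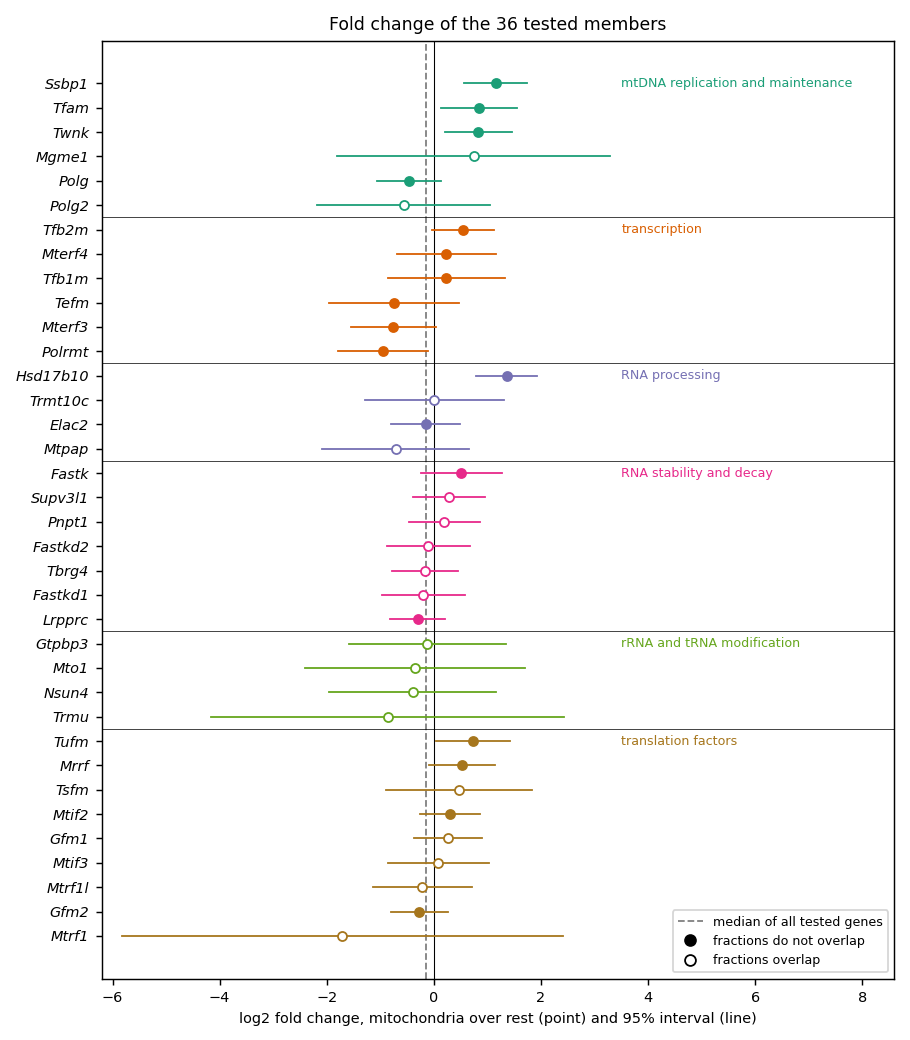
Log2 fold change of each of the 36 tested members (point) with its 95% interval from limma (line), by role, on the log2(normalized count + 1) scale. Filled points mark the 18 members whose fractions did not overlap, the dashed line marks the median of all tested genes at -0.14, and the intervals of Hsd17b10, Ssbp1, Tfam, Twnk and Tufm lie above 0 and that of Polrmt below it.

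Hsd17b10 and Ssbp1 lay close to the threshold, and their calls changed with the settings. When only the 5556 genes with a mean above 50 normalized counts were tested, 2 of the 18 members among them were called higher, Hsd17b10 (limma adjusted p = 0.0130) and Ssbp1 (limma adjusted p = 0.0259), and none lower. In that set 14.2% of all genes were called higher and 12.1% lower. Over the alternatives that kept the size-factor or TMM scaling and all 4 libraries, the adjusted p-value of Hsd17b10 ranged from 0.0130 to 0.0629. The 6 members named at the unadjusted threshold kept their sign when any 1 library was left out. Their fractions did not overlap, so this outcome was fixed in advance and adds no support.

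Ratios of members within a library do not depend on any scaling between libraries. Each of 5 pairs was therefore read as a description without a test. The pairs were chosen after the values were seen. Each set a member higher in the mitochondrial libraries against one of the same process that was lower there. Normalized counts of Tfam were 2.87 and 2.91 times those of Polrmt in the mitochondrial libraries and 0.616 and 1.07 times in the rest libraries. The ratio of Twnk to Polg was 0.902 and 0.845 against 0.331 and 0.375, and that of Ssbp1 to Polg was 0.830 and 0.969 against 0.239 and 0.344. For the paired processing enzymes Hsd17b10 and Elac2 the ratio was 3.16 and 2.90 against 1.15 and 0.962. Tufm over Gfm2 gave 2.97 and 1.75 against 1.11 and 1.15. All 5 ratios were higher in both mitochondrial than in both rest libraries, with the mean ratio (geometric) between 2.01 and 3.56 times as high. In every pair the first member lay above both rest libraries in both mitochondrial libraries, and the second lay below them. The separation of the ratios was thus fixed by the choice of pairs and adds no support. In every pair the member with the higher fold change had the shorter coding sequence. The difference in log2 fold change between the members of a pair, after that of genes of like coding length was taken off each, fell from 1.80 to 0.90 for Tfam and Polrmt, from 1.62 to 0.35 for Ssbp1 and Polg and from 1.51 to 0.85 for Hsd17b10 and Elac2. It went from 1.29 to 1.02 for Twnk and Polg and from 1.00 to 0.74 for Tufm and Gfm2.

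**Figure D3:**
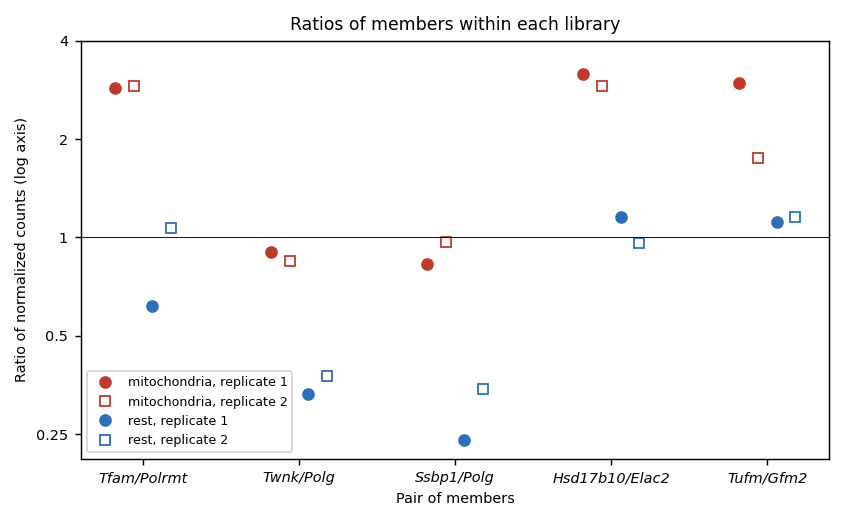
Ratio of the normalized counts of 2 members within each library (log axis), for 5 pairs. Red marks are mitochondrial and blue marks rest libraries, with circles for replicate 1 and squares for replicate 2. In each pair both red marks lie above both blue marks, which the choice of pairs fixed in advance.

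Fold changes of the members varied with the length of the coding sequence. All 6 tested members with up to 1000 coding bases (Ssbp1, Tfam, Hsd17b10, Mtif3, Tsfm and Mrrf) had a positive fold change, with a median of 0.69, beside 69.1% positive and a median of 0.40 among 3005 tested protein-coding genes of that length. Of the 16 members with more than 1000 and up to 2000 coding bases, 7 were positive with a median of -0.15, beside 41.3% and -0.15 among the 3995 genes of that class. Above 2000 coding bases, 5 of 14 members were positive with a median of -0.17, beside 23.6% and -0.48 among 3597 genes. Across the 36 members, Spearman's rho between coding length and fold change was -0.44 (Pearson's r with log2 length -0.43), and across 10597 protein-coding genes it was -0.43 (r = -0.40). With the length of the whole transcript in place of the coding length, rho was -0.09 over the members and -0.43 over all protein-coding genes. The points share the same 4 libraries and genes are not independent, so that these are descriptions. Because fragmentation time was adjusted for the mitochondrial samples, an effect of length in library preparation and a difference between fractions cannot be told apart.

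Set against the median of the 501 genes nearest in coding length, 25 of 36 members had a higher fold change, with a median difference of 0.17. Among all tested nuclear protein-coding genes it was 5297 of 10597, a share set by the construction. The length of the whole transcript was not used here. Twnk was 1.12 and Hsd17b10 1.11 above genes of like length on the log2 scale, Tufm 0.80, Tfam 0.51 and Ssbp1 0.46. Polg, negative in itself, was 0.10 above its length class, and Lrpprc was 0.31 above, so that their values were not low for genes of their length. Polrmt was 0.39 below genes of like length, a smaller difference than its fold change of -0.96 and close to its SE of 0.32, and Mterf3 and Tefm were 0.69 and 0.77 below.

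**Figure D4:**
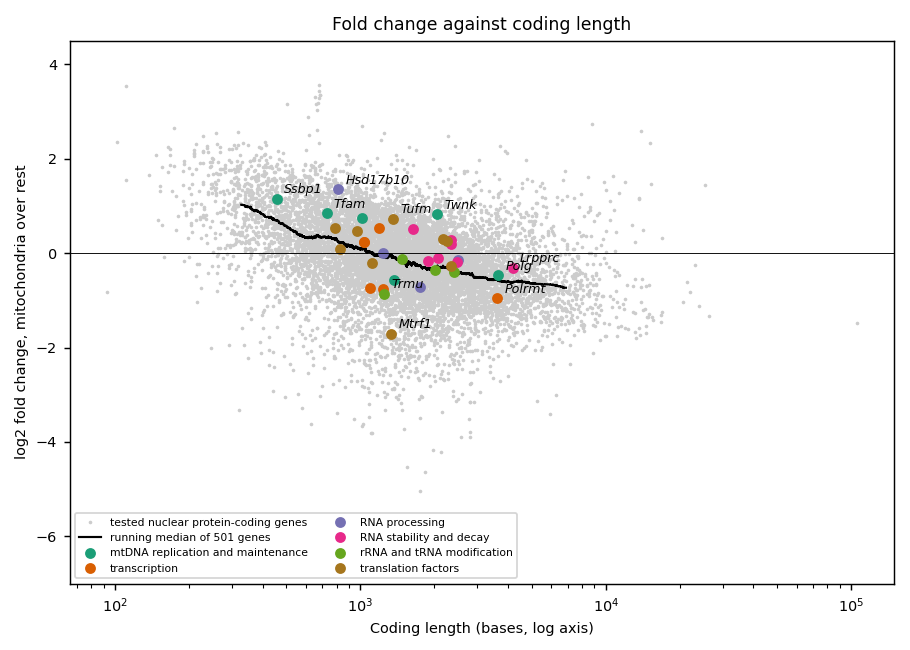
Log2 fold change against coding length (log axis) for tested nuclear protein-coding genes (grey), their running median over 501 genes (black line) and the 36 members, coloured by role. The line falls with length, and Twnk, Hsd17b10 and Tufm lie well above it while Polrmt lies below it.

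Levels between members were compared per kilobase of the transcript with the longest coding sequence, in the rest libraries. Lrpprc stood highest at 145 normalized counts per kilobase, followed by Tufm at 100.4, Gfm1 at 73.9, Fastk at 65.2 and Hsd17b10 at 55.4. The genes of the core transcription machinery were lower, with Tfb2m at 28.6, Polrmt at 19.4, Tfam at 14.0 and Tefm at 13.8. Polg2 at 6.64, Mtif3 at 5.18 and Fastkd5 at 1.49 were the lowest. Fastk shares 1141 exon bases with Slc4a2 and Mtif3 shares 1505 with Gtf3a, both on the opposite strand. If counting ignored the strand, reads there were left out and these 2 levels may be too low. Fastkd5 shares 1966 exon bases with Ubox5 on the same strand. Reads there were left out with or without use of the strand, so the level of Fastkd5 may also be too low. In the mitochondrial libraries the order at the top changed, with Tufm at 170 and Hsd17b10 at 143 above Lrpprc at 118. Tufm in the mitochondrial libraries varied from 345 to 227 before division by length, so its place relative to Hsd17b10 was within the spread of the replicates.

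Replicates of the mitochondrial fraction differed for part of the members by more than counting error. With reads recovered from the spacing of the values, an exact 95% interval of the ratio of replicate 1 to 2 excluded 1 for 8 of 36 members (22.2%), beside 16.9% of 10611 protein-coding genes. The intervals cover counting error only, since reads without molecular identifiers are not independent molecules. Mgme1 was supported by 29 and 8 reads, a ratio of 5.50 (interval from 2.45 to 13.9), and its rest replicates differed in the same direction by a ratio of 3.06. Trmu had 13 reads and 1 read, a ratio of 19.7 (2.96 to 839), and Mto1 had 17 and 5, a ratio of 5.16 (1.83 to 17.9), whereas the rest replicates of Mto1 were equal. Mtrf1 with 0 and 9 reads and Nsun4 with 4 and 19 were lower in replicate 1. The abundant members Tufm, Gfm1 and Lrpprc were higher in replicate 1 by ratios of 1.52, 1.47 and 1.30. Hsd17b10 (35 and 58 reads) and Ssbp1 (24 and 37 reads) gave ratios of 0.916 and 0.985, and their intervals included 1.

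**Figure D5:**
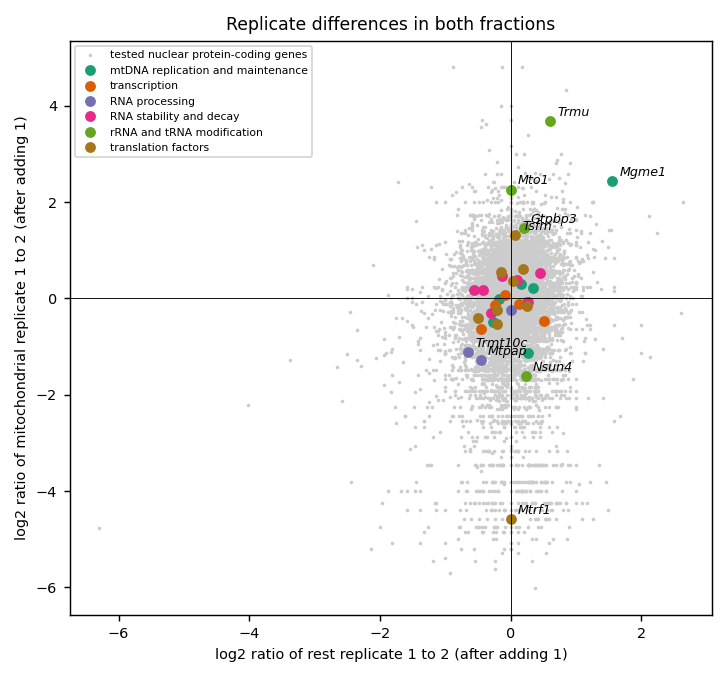
Log2 ratio of replicate 1 to replicate 2, after adding 1 to each value, in the mitochondrial fraction (vertical axis) against the rest (horizontal axis), for tested nuclear protein-coding genes (grey) and members coloured by role. The grey cloud is wider along the vertical axis; Mgme1 lies far out along both axes, and Trmu, Mto1 and Mtrf1 along the vertical axis.

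Other genes of the same pathway, 70 in number and chosen by function, were set beside the members. Of these, 66 were listed and 60 tested, and none was called in either direction. An unadjusted p-value under 0.05 was reached by 10 that were higher, beside 14.1% of all genes, and 1 that was lower, beside 16.2%. Their median fold change was 0.27, with 27 above and 7 below in both mitochondrial libraries, beside 27.7% and 33.4% of all genes. The mitochondrial ribosomal protein genes, whose products are used by the members' translation factors, had a median of 1.00. Of these, 7 of 74 tested genes were called higher and none lower, beside 2.16% and 1.39% of all genes. The median coding length of the ribosomal protein genes, 582 bases, was below the 1428 bases of the members. Against genes of like coding length the medians were 0.64 for the ribosomal protein genes, 0.36 for the other pathway genes and 0.17 for the members. The difference between these groups was not tested.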

How the data were processed

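RNA-seq of 2 mitochondrial and 2 rest libraries of WT mouse hearts was analysed, grouped by the labels. Per the submitters' processing notes, Trimmomatic 0.39, STAR 2.7.10a, featureCounts 2.0.2, DESeq2 1.30.1 and mm10 were used. The authors excluded reads that mapped to several places or overlapped several genes. The deposited signal is a normalized count, that is, the reads per gene over the library's size factor, which the authors rounded to whole numbers, so that tests for raw counts did not apply. log2(value + 1) was fitted with limma 3.58.1 (R 4.3.3; trend, moderation) on fraction alone, for genes with at least 10 in at least 2 libraries, with Benjamini-Hochberg adjustment over 12150 genes and a threshold of 0.05. Coding and transcript lengths came from GENCODE M21, in which 15612 of 15746 genes had identical coordinates. Copies of members were sought with blastn 2.17.0 (at least 300 bases at 95% identity). The fit was tested on simulated data.

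The members and lists were chosen with earlier results of these data known. Every listed member is given. Values in each library are given for those past the call without or with the replicate block and for the highest and lowest fold change of each role; those of other members were added where their replicates or processes are described. Alternatives were no filter, a mean above 50, pseudocounts of 0.1 and 10, recomputed size factors, TMM, library totals with and without the mitochondrial chromosome, a replicate block and each library left out.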

Additional observations from a re-analysis of the deposited data

How the results depend on the processing

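The count of members called higher was 0 as reported, where 262 of 12150 genes were higher, and 0 with a pseudocount of 0.1, where no gene of the table was called in limma (1694 higher and 1754 lower at an unadjusted p under 0.05). It was 1 (Hsd17b10) with no filter and with recomputed size factors (279 and 299 genes higher in all), and 2 (Hsd17b10 and Ssbp1) with a mean above 50, a pseudocount of 10 or TMM scaling (790, 536 and 544 in all), with the same directions as reported; the cause was not tested. The count called lower stayed at 0 except under the library total (36) and the total without the mitochondrial chromosome (8: Elac2, Lrpprc, Gfm2, Polrmt, Polg, Mterf3, Mtpap and Tefm), which also gave 0 higher; these scales called 12022 and 3819 of all 12150 genes lower. The median log2 fold change of the members was 0.29 for a mean above 50, which leaves 18 members, -3.82 under the library total and -0.89 under the total without the mitochondrial chromosome, and from -0.091 to 0.155 with each library left out, where 0 genes of 12150 were called in limma. At an unadjusted p under 0.05, 5 and 8 members were then higher and 5 and 5 lower without mitochondrial replicates 1 and 2 (1896 and 2333 of all genes higher, 2706 and 3324 lower), and 2 higher and 0 lower without either rest replicate (590 and 645 higher, 468 and 549 lower). With 1 library left out the lone library of a fraction is assumed to vary like the other fraction.

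The labels number the libraries 1 and 2 in both fractions without saying that a number marks a shared animal, and the differences between replicates 1 and 2 correlated at 0.130 over 12150 genes between the fractions. With the replicate block, 1 member was called higher (Hsd17b10, limma adjusted p = 0.0467) and 0 lower, while the genes called over the whole table went from 262 higher and 169 lower to 470 and 309.

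Under the library total all 18 positive log2 fold changes reversed, by the construction of that scale: Twnk -3.09, Pnpt1 -3.73, Tufm -3.23, Mtif2 -3.63, Hsd17b10 -2.58, Tsfm -3.33, Mtif3 -3.69, Mgme1 -3.12, Tfam -3.07, Tfb1m -3.34, Trmt10c -3.79, Ssbp1 -2.76, Mterf4 -3.48, Mrrf -3.39, Tfb2m -3.39, Fastk -3.44, Supv3l1 -3.62, Gfm1 -3.71. Under the total without the mitochondrial chromosome 16 reversed: Twnk -0.026, Pnpt1 -0.66, Tufm -0.13, Mtif2 -0.55, Tsfm -0.35, Mtif3 -0.75, Mgme1 -0.093, Tfam -0.0078, Tfb1m -0.56, Trmt10c -0.83, Mterf4 -0.59, Mrrf -0.32, Tfb2m -0.31, Fastk -0.35, Supv3l1 -0.57, Gfm1 -0.60. With each library left out in turn, 15 of 36 members changed sign at least once, with lowest and highest values of Fastkd1 -0.47 to 0.083, Fastkd2 -0.34 to 0.13, Gfm1 -0.015 to 0.54, Gtpbp3 -0.85 to 0.60, Mgme1 -0.47 to 1.95, Mtif3 -0.16 to 0.33, Mto1 -1.48 to 0.78, Mtrf1 -4.00 to 0.58, Mtrf1l -0.48 to 0.054, Nsun4 -1.20 to 0.41, Pnpt1 -0.019 to 0.41, Polg2 -1.13 to 0.0060, Trmt10c -0.55 to 0.57, Trmu -2.70 to 0.98, Tsfm -0.18 to 1.13. DESeq2 needs raw counts, which these values are not, and was left out.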
